A study of Mus musculus with 6 samples.

Results

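The 6 genes described here are *Gja1*, *Gja4*, *Gjb2*, *Gjb6* and *Gjc1*, which encode connexins, and *Panx1*, which encodes pannexin 1. They were taken from the 18152 genes of the table by their symbols, with no measured value in the rule. Earlier results of these data were known when they and the gene lists below were chosen. All 6 genes were listed and all 6 passed the filter on low counts, which left 14131 genes for the test. RNA-seq was performed on the inner enamel epithelium (IEE), the layer of the enamel organ that faces the dental papilla and later forms ameloblasts, from the mandibular first molar (MM1) at E18.5. The 3 control libraries came from *Kdf1* fl/fl mice and the 3 cKO libraries from *K14-Cre;Kdf1* fl/fl mice, all on a C57BL/6J background. Floxed *Kdf1* alleles were thus carried by both groups, and Cre was carried by the cKO group alone. The keratin 14 promoter drives Cre in epithelial cells and not in the papilla or the vessels. Samples were marked as biological replicates, but how many embryos each library holds was not given in the sources used here, so the p-values measure only the spread between these samples. The labels call the control group WT. The IEE was cut from frozen head sections by laser capture microdissection, and cells at the edge of the cut area can be included.

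*Kdf1* itself was at 52.5, 44.3 and 52.7 CPM (counts scaled to the library size) in control replicates 1, 2 and 3, with 1 read in all 3 cKO libraries together. The control mean was 252-fold the limit of 3 counts in a library (0.198 CPM in the smallest cKO library). That limit is the one for a count of 0, as in cKO replicates 1 and 3, and the 1 read was in cKO replicate 2. The libraries held between 14713918 and 16675133 counts, and all 12 dental epithelial markers were detected in numbers that allowed a test. The summed level of 10 of these markers, leaving out the enamel matrix genes *Amelx* and *Ambn*, was 9820 to 14532 CPM in control and 6125 to 10225 CPM in cKO. cKO replicate 3 stood apart from the other cKO libraries in this sum, at 10225 CPM against 6125 and 6213 CPM. Markers of other tissues were also present in every library, and their levels are given beside the genes they moved with.

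Connexins assemble into channels in the cell membrane, and channels of touching cells dock to form gap junctions, through which ions and small metabolites pass from cell to cell. In the tooth germ, gap junctions couple the cells of the enamel organ, and mutations in human *GJA1* cause oculodentodigital dysplasia, which includes defects of enamel. Pannexins form related channels that open to the outside of the cell and are best known for releasing ATP.

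Promoters are shown for the 3 connexin genes whose levels varied together across the libraries (*Gja1*, *Gjb2* and *Gjb6*) and for the one whose groups lay farthest apart (*Gja4*). The promoter set used, from RefSeq on the GRCm38.p6 assembly, held 5 of the 6 genes and had no entry for *Gjc1*. The 250 bases before the start of the gene are printed 5′ to 3′ on the gene's own strand. Capitals mark matches, on either strand, to 5 motifs searched by script: the TATA box (TATAAA), the CCAAT box (CCAAT), the GC box (GGGCGG), the AP-1 site (TGANTCA) and the Grainyhead site (AACCNGTT). The windows lie at chr10:56377050-56377299 on the plus strand for *Gja1*, and on the minus strand at chr14:57104703-57104952 for *Gjb2*, chr14:57133612-57133861 for *Gjb6* and chr4:127314040-127314289 for *Gja4*.
Gja1: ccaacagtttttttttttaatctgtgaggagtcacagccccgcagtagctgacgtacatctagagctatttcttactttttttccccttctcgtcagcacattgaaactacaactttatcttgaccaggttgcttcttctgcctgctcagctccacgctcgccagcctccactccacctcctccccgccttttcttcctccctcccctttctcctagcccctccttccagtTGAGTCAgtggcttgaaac
Gjb2: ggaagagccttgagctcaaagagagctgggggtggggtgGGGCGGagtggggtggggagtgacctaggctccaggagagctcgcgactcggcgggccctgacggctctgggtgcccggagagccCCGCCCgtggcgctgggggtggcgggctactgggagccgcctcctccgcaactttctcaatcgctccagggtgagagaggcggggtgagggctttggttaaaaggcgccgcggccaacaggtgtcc
Gjb6: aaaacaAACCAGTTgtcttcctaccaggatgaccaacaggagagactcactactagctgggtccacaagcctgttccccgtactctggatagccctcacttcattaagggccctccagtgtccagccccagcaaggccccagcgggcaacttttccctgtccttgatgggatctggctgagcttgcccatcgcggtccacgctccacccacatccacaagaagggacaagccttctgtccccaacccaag
Gja4: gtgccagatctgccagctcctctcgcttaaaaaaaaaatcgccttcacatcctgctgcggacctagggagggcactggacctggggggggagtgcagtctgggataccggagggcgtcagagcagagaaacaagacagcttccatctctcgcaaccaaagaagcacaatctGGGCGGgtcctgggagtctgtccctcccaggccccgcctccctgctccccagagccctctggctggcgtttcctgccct

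The *Gja1* window held 1 AP-1 match, which began 19 bases before the start, and such a match was present in 6.75% of all 32851 promoter windows of the same length. The *Gjb2* window held 2 GC boxes, at 211 and 126 bases before the start, and the *Gja4* window held 1, at 79 bases. A GC box was present in 32.7% of all windows. The *Gjb6* window held 1 Grainyhead match at 244 bases, a motif found in 1.79% of windows. The *Panx1* window held 1 CCAAT box, found in 33.8% of windows, and no window of these 5 genes held the TATA box, found in 12.4%. The promoters of the 3 connexin genes that varied together thus held no motif of this list in common, and no match overlapped another. GC content was 50.0% for *Gja1*, 69.2% for *Gjb2*, 56.8% for *Gjb6* and 61.2% for *Gja4*, against a median of 52.4%. These matches describe the letters only. On chromosome 14, *Gja3*, *Gjb2* and *Gjb6* follow each other with no other coding gene between them in the RefSeq annotation.

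In the libraries of the cut IEE, one connexin lay far above the others. *Gja1* ranked 117 of 18152 genes by mean TPM, a level scaled by gene length and library size, in control and 153 in cKO. Its TPM was 1145, 1059 and 1244 in control replicates 1 to 3 and 754, 546 and 1306 in cKO replicates 1 to 3. All 21 connexin and pannexin genes of the table summed to 1336 ± 56.1 TPM in control and 1094 ± 374 TPM in cKO (SD, n = 3 each), and *Gja1* made up 86.0% ± 3.33 of this sum in control and 77.5% ± 8.78 in cKO. The share by library was 86.3%, 82.5% and 89.1% in control and 77.2%, 68.8% and 86.4% in cKO, so the groups overlapped through cKO replicate 3. An exact two-sided permutation test over the 6 libraries gave p = 0.3 for the share, where 3 against 3 cannot go below 0.1. The same test on the shares of the other 5 genes gave p between 0.1 and 0.9.

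In control, the order by mean TPM after *Gja1* was *Panx1* at 63.4 ± 8.66, *Gjc1* at 61.0 ± 8.97, *Panx3* at 35.3 ± 31.5 and *Gja4* at 7.10 ± 1.03 (SD, n = 3). *Gjb2* at 4.59 ± 1.57 TPM and *Gjb6* at 3.20 ± 1.12 TPM came below *Gja3* at 4.75 ± 0.766 TPM. *Panx1*, *Gjc1* and *Panx3* had overlapping ranges with their neighbours in this order, as did *Gja3*, *Gjb2* and *Gjb6*, so that order was not separated by the spread between libraries. *Gja1* lay above all others without overlap, and *Gja4* lay between the tiers without overlap. In cKO, *Gjc1* at 84.8 ± 16.5 TPM stood above *Panx1* at 51.9 ± 4.26 TPM with no overlap, and *Gja4* at 21.2 ± 10.4 TPM overlapped *Panx3* at 47.8 ± 23.0 TPM. *Gja1* remained the highest at 869 ± 393 TPM.

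**Figure D1:**
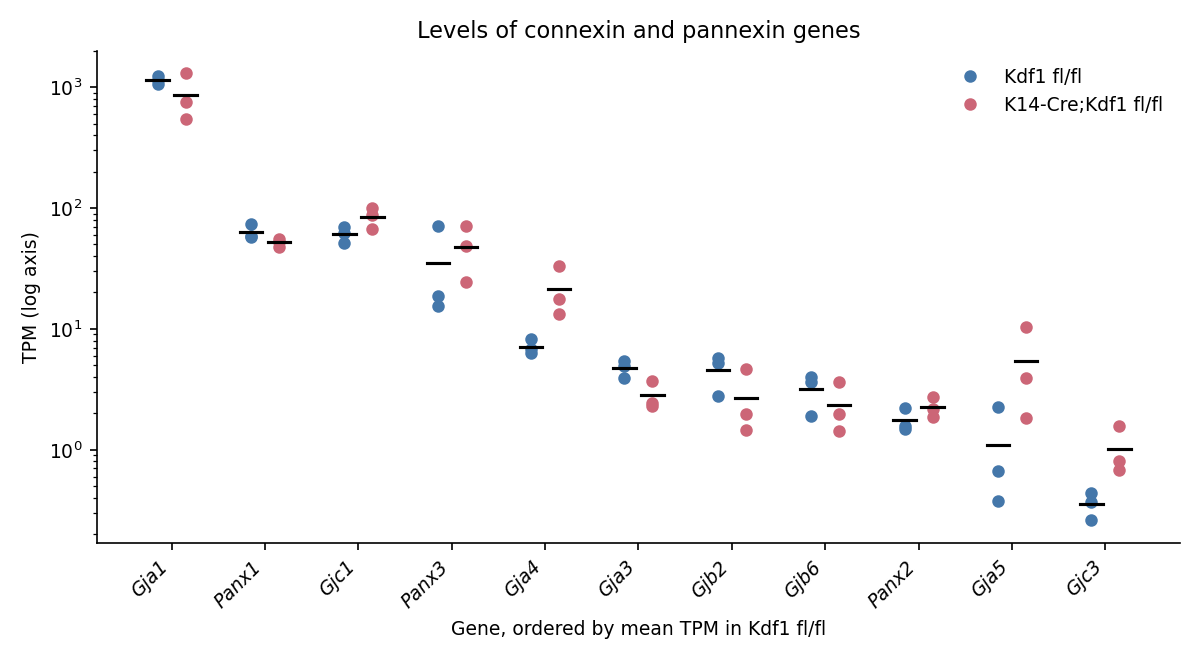
TPM on a log axis of the 6 genes and of 5 other connexin and pannexin genes that passed the filter, with a point for each library (3 control in blue, 3 cKO in red) and a bar at the group mean. *Gja1* lies above all other genes in both groups, *Panx1*, *Gjc1* and *Panx3* form the next tier, and the *Gja4* points of cKO (13.2 to 32.9 TPM) lie above those of control (6.27 to 8.25 TPM).

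The comparison of cKO with control asked whether loss of *Kdf1* in the epithelium went with a change in these channel genes. A gene passed the criterion when its log2 fold change was 1 or more in size and its adjusted p was 0.05 or less. None of the 6 genes passed in the edgeR quasi-likelihood test (0 of 6), against 0.432% of all genes tested, 0.142% higher and 0.29% lower in cKO. In limma-voom 0 of 6 passed, where only 6 of all 14131 genes did. At an unadjusted p of at most 0.05, 2 of the 6 passed (*Gja4* and *Gjc1*), as did 24.5% of all genes. DESeq2 called 1, *Gja4*, where it called 6.94% of all genes, 5.05% as higher in cKO. The edgeR fit with the replicate number as a block also called 1, *Gja4*, against 6.09% of all genes, 4.16% as higher. The groups did not overlap in 2 of the 6 genes (*Gja4* and *Gjc1*), and in 30.7% of all genes. The median log2 fold change of the 6 genes was −0.40, with 2 genes higher and 4 lower on average in cKO. Of all genes tested 49.5% were higher on average, and their median was −0.0043.

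**Figure D2:**
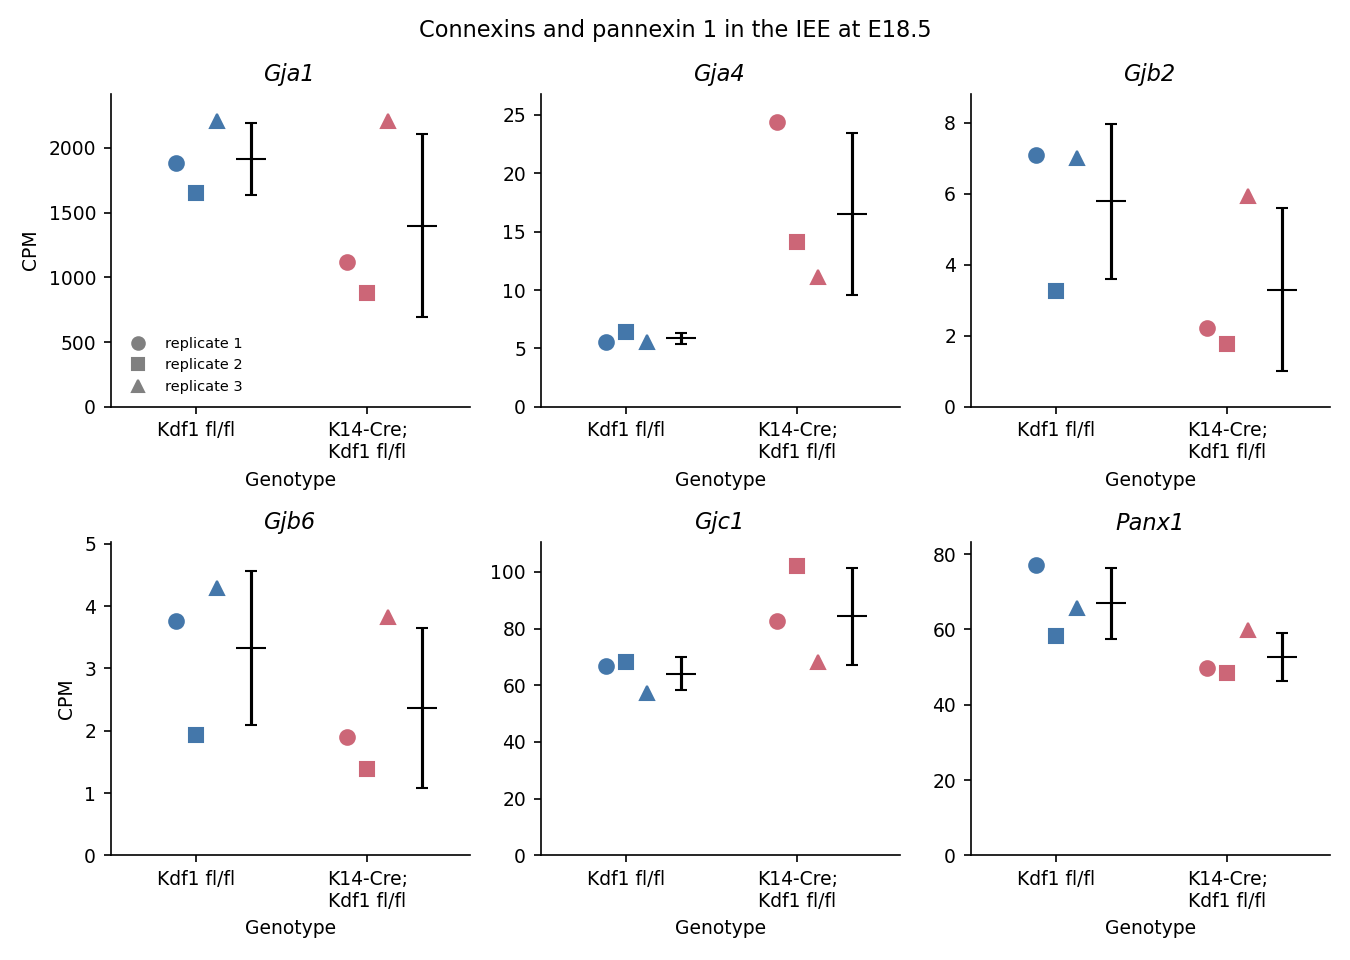
CPM of the 6 genes in each library, with circles, squares and triangles for replicates 1, 2 and 3, and beside each group its mean and SD (n = 3). The *Gja4* groups are well apart, those of *Gjc1* are barely apart (68.1 CPM against 68.2 CPM at the nearest points), and the *Gja1*, *Gjb2* and *Gjb6* values of cKO replicate 3 lie among the control values.

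*Gja1*, which encodes the most widely expressed connexin of epithelia and bone, was at 1886, 1651 and 2208 CPM in control and 1116, 879 and 2206 CPM in cKO. cKO replicates 1 and 2 lay below every control library, and cKO replicate 3 was as high as the highest control library. The means were 1915 ± 280 CPM and 1401 ± 708 CPM (SD, n = 3). The log2 fold change was −0.45 (SE 0.34), with an adjusted p of 0.449 (edgeR quasi-likelihood, Benjamini-Hochberg). It was −0.92 without cKO replicate 3, where edgeR gave an adjusted p of 0.0536, and −0.18 without cKO replicate 2.

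The 2 libraries with the lowest *Gja1*, cKO replicates 1 and 2, were also those with the lowest sum of the 10 dental epithelial markers. As a percentage of that sum, *Gja1* was 15.7, 16.8 and 15.2 in control and 18.2, 14.2 and 21.6 in cKO, and the groups overlapped. In bulk samples, fewer cells of a type and less RNA per cell cannot be told apart, and the part of epithelial content in the *Gja1* values was not tested. Abundant genes such as *Krt5* weigh most in the sum of the 10 markers. Of the 12 dental epithelial markers, 10 were lower on average in cKO and 1 passed the criterion. The 2 higher on average were *Shh* and *Msx2*, with log2 fold changes of 0.27 and 0.23 in edgeR. *Epcam* was almost level, at −0.05. *Krt14*, a keratin of basal epithelial cells, was at 1265, 1121 and 2315 CPM in control and 455, 399 and 811 CPM in cKO. Its partner *Krt5* was at 4814, 3539 and 5790 CPM in control and 2209, 2338 and 3402 CPM in cKO. Both keratins were lower in every cKO library than in any control library. Their log2 fold changes were −1.50 (SE 0.37) and −0.83 (SE 0.25), at adjusted p values of 0.0842 and 0.118 (edgeR quasi-likelihood, Benjamini-Hochberg). With the replicate block in edgeR, *Krt14* passed the criterion (adjusted p 0.00685). In that fit 4 of the 12 markers passed in all, each lower in cKO, against 6.09% of all genes in either direction.

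*Gjb2* and *Gjb6*, which encode connexins of the inner ear and skin and are mutated in hereditary deafness and skin disease, were expressed at low levels. *Gjb2* was at 7.09, 3.27 and 7.01 CPM in control (113, 54 and 111 counts) and 2.21, 1.76 and 5.93 CPM in cKO (35, 28 and 90 counts). cKO replicates 1 and 2 lay below all control libraries, and cKO replicate 3 lay above control replicate 2. The log2 fold change was −0.81 (SE 0.53), with an adjusted p of 0.389 (edgeR quasi-likelihood, Benjamini-Hochberg). Without cKO replicate 3 it was −1.51 (adjusted p 0.0861 in the same edgeR test), and without cKO replicate 2 it was −0.48. The RefSeq annotation places Gm32912 across the *Gjb2* gene, and the sources used here do not state whether counting used strand, so reads of the pair could not be told apart.

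*Gjb6* was at 3.77, 1.94 and 4.30 CPM in control (60, 32 and 68 counts) and 1.90, 1.38 and 3.82 CPM in cKO (30, 22 and 58 counts). The highest cKO library was again replicate 3, and the lowest of each group was replicate 2. The log2 fold change was −0.49 (SE 0.48), with an adjusted p of 0.564 (edgeR quasi-likelihood, Benjamini-Hochberg), and it was −0.99 without cKO replicate 3 and −0.19 without cKO replicate 2.

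Across the 6 libraries, the log2 CPM of *Gjb2* and *Gjb6* correlated at r = 0.976, that of *Gja1* and *Gjb2* at 0.946 and that of *Gja1* and *Gjb6* at 0.920. *Panx1* varied with these 3 genes too, at r = 0.915 with *Gjb2*, 0.828 with *Gjb6* and 0.797 with *Gja1*. *Gjc1* ran opposite to *Gja1*, with r = −0.945, and *Gja4* opposite to *Panx1*, with r = −0.826. These values describe 6 points that share the 2 genotypes, the libraries and their scaling. In both groups replicate 2 was the lowest library for *Gja1*, *Gjb2* and *Gjb6*. Replicate 3 was the highest in both groups for *Gja1* and *Gjb6*, and in cKO for *Gjb2*, where control replicates 1 and 3 were at 7.09 and 7.01 CPM.

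*Gja4* encodes a connexin of arterial endothelium and of the ovarian follicle. It was at 5.59, 6.42 and 5.56 CPM in control (89, 106 and 88 counts) and 24.4, 14.1 and 11.1 CPM in cKO (385, 224 and 169 counts). Every cKO library lay above every control library, as in 14.5% of all genes tested. The means were 5.86 ± 0.489 and 16.5 ± 6.94 CPM (SD, n = 3), a log2 fold change of 1.50 (SE 0.31), or 2.82-fold, with an adjusted p of 0.0679 (edgeR quasi-likelihood, Benjamini-Hochberg). The call depended on the test. DESeq2 gave 1.52 (SE 0.35, adjusted p 0.000612) and the edgeR fit with the replicate block gave 1.42 (SE 0.27, adjusted p 0.0276). Leaving out cKO replicate 3, the lowest cKO library, gave 1.73 with an adjusted p of 0.0476 in edgeR (2.29% of genes were then called higher), and leaving out cKO replicate 1, the highest, gave 1.12 with 0.112. Over all 16 alternatives the adjusted p from edgeR, DESeq2 and limma ran from 0.000612 to 0.278, and the log2 fold change from 1.12 to 1.73, always higher in cKO.

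**Figure D3:**
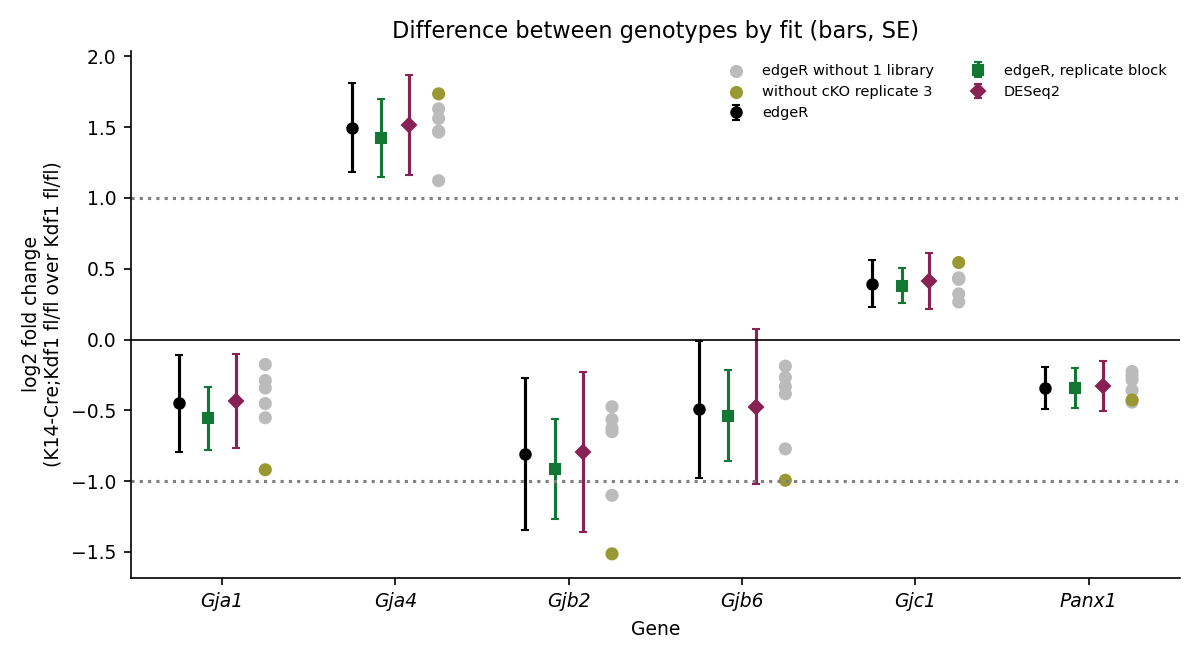
Log2 fold change of cKO over control for the 6 genes in edgeR (black), in the blocked edgeR fit (green) and in DESeq2 (purple), with SE bars, and for edgeR with 1 library left out (grey, or olive without cKO replicate 3). *Gja4* lies above 1 in all of these fits, and the *Gja1*, *Gjb2* and *Gjb6* values are lowest without cKO replicate 3.

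The endothelial markers were higher on average in cKO in 9 of 9 genes, with 0 past the criterion in edgeR. At an unadjusted p of at most 0.05 in edgeR 5 passed, against 24.5% of all genes. DESeq2 called 2, against 6.94% of all genes. The summed level of the 9 endothelial markers was 353, 383 and 303 CPM in control and 1025, 607 and 352 CPM in cKO. In this sum cKO replicate 3 lay within the control range. *Pecam1*, an adhesion molecule of endothelium, was at 62.8, 70.1 and 55.5 CPM in control and 206, 125 and 76.3 CPM in cKO. *Cdh5*, the cadherin of endothelial junctions, was at 107, 118 and 79.8 CPM in control and 309, 189 and 95.6 CPM in cKO. Set against the endothelial sum, *Gja4* was 1.58%, 1.68% and 1.83% in control and 2.38%, 2.32% and 3.16% in cKO, a ratio chosen after the values were seen. The groups did not overlap in this ratio. Of the 9 endothelial markers, 4 were higher in cKO without overlap, *Pecam1* among them, and the others overlapped. Over all genes, 14.5% were higher in cKO without overlap. The sum thus does not stand for each marker in cKO replicate 3. The part of vessel content in the *Gja4* values was not tested beyond these figures.

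Of the 8 arterial markers, 7 were higher on average in cKO and 0 passed the criterion in edgeR. At an unadjusted p of at most 0.05 in edgeR, 5 were higher and 1 lower, against 24.5% of all genes. DESeq2 called 1 higher, *Nrp1*, against 5.05% of all genes. *Nrp1*, a co-receptor for VEGF and semaphorins, was at 19.6, 28.9 and 23.6 CPM in control and 86.9, 40.1 and 31.6 CPM in cKO (log2 fold change 1.14, adjusted p 0.135 in edgeR and 0.0302 in DESeq2). *Dll4*, a Notch ligand of arteries, was at 9.04, 6.72 and 7.77 CPM in control and 26.8, 11.6 and 9.62 CPM in cKO. *Bmx*, a kinase of arterial endothelium, was at no more than 0.505 CPM in control and at 0.857 to 3.35 CPM in cKO. These 3 genes were higher in cKO without overlap, and they were named after their values were seen. The first genes of the list, *Efnb2* (83.0 to 92.6 CPM in control and 72.1 to 136 CPM in cKO) and *Hey1* (73.8 to 90.3 and 72.3 to 128 CPM), overlapped between groups.

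The summed level of the 8 arterial markers was 796 to 836 CPM in control and 691 to 772 CPM in cKO, and most of it came from *Unc5b*, a netrin receptor, the gene of the list that was lower on average. *Unc5b* was at 585, 604 and 592 CPM in control and 397, 441 and 425 CPM in cKO (log2 fold change −0.50, adjusted p 0.0757 in edgeR). Without it, a choice made after the values were seen, the other 7 summed to 211, 232 and 205 CPM in control and 375, 254 and 266 CPM in cKO, higher in every cKO library. *Gja4* was 2.65%, 2.77% and 2.71% of this sum in control and 6.50%, 5.56% and 4.19% in cKO, without overlap. The part of arterial content in the *Gja4* values was not tested beyond these figures.

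*Gja5*, which encodes another connexin of arteries and the atria, was at 0.628, 3.51 and 1.20 CPM in control and 15.4, 2.96 and 6.79 CPM in cKO. cKO replicate 2 lay within the control range, and the log2 fold change of 2.23 (SE 0.78) had an adjusted p of 0.146 in edgeR, 0.188 with the block and 0.0272 in DESeq2.

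**Figure D4:**
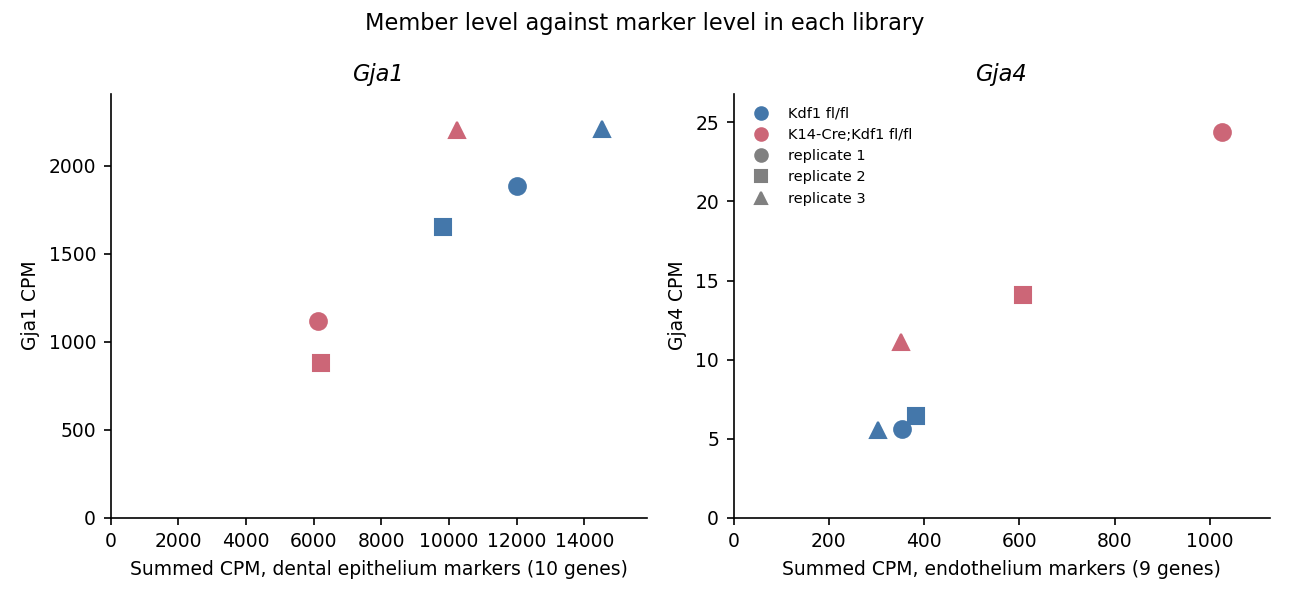
CPM of *Gja1* against the summed CPM of 10 dental epithelial markers (left) and CPM of *Gja4* against that of 9 endothelial markers (right), with a point for each library. cKO replicate 3 lies near the control libraries on both horizontal axes, at 10225 and 352 CPM. Every cKO point of *Gja4* lies above the control points.

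*Gjc1* encodes a connexin of the early heart and of vascular smooth muscle. It was at 66.8, 68.1 and 57.4 CPM in control and 82.6, 102 and 68.2 CPM in cKO. The cKO libraries lay above the control libraries by a margin of 68.2 against 68.1 CPM, and in TPM the groups overlapped. The log2 fold change was 0.40 (SE 0.17), and the adjusted p was 0.201 (edgeR quasi-likelihood, Benjamini-Hochberg). It was 0.54 without cKO replicate 3 and 0.26 without cKO replicate 2.

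Markers of pericytes and smooth muscle summed to 507 to 577 CPM in control and 527 to 1573 CPM in cKO, and 9 of 10 were higher on average in cKO. *Pdgfrb*, a receptor of pericytes and mesenchyme, was at 38.2, 56.2 and 28.7 CPM in control and 273, 151 and 69.1 CPM in cKO. Its adjusted p in edgeR was 0.0841, and 0.0285 with the replicate block, where it passed the criterion. *Rgs5*, a pericyte gene, was at 80.6, 103 and 104 CPM in control and 262, 135 and 112 CPM in cKO. As a percentage of the pericyte sum, *Gjc1* was 11.6, 13.3 and 11.3 in control and 5.25, 14.4 and 12.9 in cKO. These values overlapped, and *Gjc1* was highest in cKO replicate 2 whereas the pericyte sum was highest in cKO replicate 1.

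*Panx1* was at 77.0, 58.2 and 65.6 CPM in control and 49.7, 48.4 and 59.9 CPM in cKO. cKO replicates 1 and 2 lay below all control libraries, and cKO replicate 3 lay just above control replicate 2. The log2 fold change was −0.35 (SE 0.15), and the adjusted p was 0.207 (edgeR quasi-likelihood, Benjamini-Hochberg). In TPM the groups did not overlap, at 73.4, 58.7 and 58.1 in control and 52.7, 47.2 and 55.6 in cKO. As a percentage of the dental epithelial sum, *Panx1* was 0.641, 0.593 and 0.452 in control and 0.812, 0.779 and 0.586 in cKO, so that the order of the group means was turned around and the groups overlapped.

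Of 17 other connexin and pannexin genes listed, 15 were in the table and 6 passed the filter. None of the 6 passed the criterion in edgeR (0 of 6). At an unadjusted p of at most 0.05 in edgeR 3 passed, against 24.5% of all genes. DESeq2 called 1, *Gja5*, against 6.94% of all genes. *Gja3*, a connexin gene of the lens and the neighbour of *Gjb2*, was at 5.46, 6.48 and 8.15 CPM in control and 3.04, 3.15 and 5.34 CPM in cKO, without overlap, as in 16.2% of genes for this direction (log2 fold change −0.80, SE 0.32, adjusted p 0.179 in edgeR). *Gjc3*, a glial connexin gene, was at 0.502 to 0.787 CPM in control and 1.26 to 2.72 CPM in cKO (log2 fold change 1.43, SE 0.43, adjusted p 0.115 in edgeR). Of the neural and Schwann cell markers, *Sox10*, a transcription factor of Schwann cells, was at no more than 0.0632 CPM in control and at 0.503 to 5.82 CPM in cKO. The part of such cells in the *Gjc3* values was not tested.

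*Panx3*, a pannexin gene of osteoblasts, odontoblasts and cartilage, varied more within groups than between them, at 24.5, 88.6 and 21.9 CPM in control and 28.7, 89.9 and 65.1 CPM in cKO. Its log2 fold change was 0.44 (SE 0.62, adjusted p 0.695 in edgeR). Replicate 2 was the highest library in both groups. *Panx2*, which is expressed chiefly in the nervous system, was at 2.67 to 3.96 CPM in control and 3.27 to 5.08 CPM in cKO (log2 fold change 0.31, SE 0.31, adjusted p 0.574 in edgeR). Markers of the dental papilla and odontoblasts summed to 3552, 16944 and 12834 CPM in control and 9775, 9521 and 9476 CPM in cKO. *Col1a1* weighed most in this sum, at 2062, 12956 and 8374 CPM in control and 4368, 5560 and 7036 CPM in cKO. Of these 14 genes 11 were higher on average in cKO, and the 3 lower were *Col1a1*, *Nes* and *Dspp*. The odontoblast marker *Dspp* was at 484, 1932 and 3488 CPM in control and 16.0, 76.5 and 449 CPM in cKO, without overlap (log2 fold change −3.45, adjusted p 0.152 in edgeR). *Twist1*, a transcription factor of mesenchyme, was the only papilla marker past the criterion, at 9.29, 16.5 and 8.97 CPM in control and 75.9, 45.8 and 41.9 CPM in cKO (adjusted p 0.0498 in edgeR). *Msx1*, another factor of dental mesenchyme, was at 22.1, 60.8 and 23.4 CPM in control and 121, 100 and 77.5 CPM in cKO. Its adjusted p was 0.0988 in edgeR and 0.0387 in edgeR with the replicate block. The block called 9 papilla markers as higher and 1 as lower, against 4.16% of all genes as higher and 6.09% in all.

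The scaffold, trafficking and regulatory partners of connexins held 1 gene past the criterion among 13 tested, on the lower side. This was *Ezr*, which encodes ezrin, a linker of membrane proteins to actin that binds the connexin encoded by *Gja1*. It fell from 288, 222 and 296 CPM in control to 94.9, 104 and 90.2 CPM in cKO, with every cKO library under the lowest control library. The log2 fold change was −1.48 (SE 0.14, adjusted p 0.0305 in edgeR). This gene lost the call when control replicate 1, control replicate 3, cKO replicate 1 or cKO replicate 2 was left out, fits in which 1 gene of the whole table passed, and the list then held 0 calls. Without cKO replicate 3, *Cav1* joined *Ezr*, giving 2. At an unadjusted p of at most 0.05 in edgeR, 5 of the 13 passed, 1 higher and 4 lower, against 24.5% of all genes. The median log2 fold change of the list was −0.15.

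Further partners named after their values were seen were *Tjp1*, which encodes a junctional scaffold that binds connexin tails, and *Cav1*, the main protein of caveolae. *Tjp1* was at 208, 177 and 199 CPM in control and 148, 113 and 124 CPM in cKO. The groups did not overlap (log2 fold change −0.60, SE 0.14, adjusted p 0.0747 in edgeR). *Cav1*, abundant in endothelium, was at 74.4, 72.8 and 57.8 CPM in control and 165, 123 and 97.1 CPM in cKO (log2 fold change 0.91, SE 0.21, adjusted p 0.0757 in edgeR).

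None of the 12 kinases known to phosphorylate the *Gja1* product passed the criterion in edgeR or DESeq2 (0 of 12). At an unadjusted p of at most 0.05 in edgeR 1 passed, against 24.5% of all genes. The median log2 fold change of the kinases was −0.036. *Src*, at 123 to 139 and 103 to 119 CPM, had a log2 fold change of −0.26 (adjusted p 0.205 in edgeR), and *Prkce*, at 14.6 to 19.0 and 18.7 to 26.9 CPM, had 0.43 (adjusted p 0.216 in edgeR).

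Around the ATP that pannexin channels release, 23 genes of receptors, ectonucleotidases and caspases were listed and 20 were tested. *P2rx2*, which encodes an ATP-gated cation channel, was the one that passed. It fell from 13.9, 5.03 and 11.0 CPM in control to 0.570, 0.441 and 1.05 CPM in cKO, without overlap. It fell by 3.84 on the log2 scale (SE 0.52), and the edgeR adjusted p of 0.0498 lay close to the threshold. The list held 0 calls when control replicate 1, control replicate 3, cKO replicate 1 or cKO replicate 2 was left out. In each of those fits 1 gene of the whole table passed. The list held 2 calls with DESeq2 or with the replicate block, where *P2ry14* passed as well. These called 6.94% and 6.09% of all genes.

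*P2ry14*, the receptor for UDP-glucose, and *Alpl*, the tissue-nonspecific alkaline phosphatase, were named after their values were seen. *P2ry14* was at 0.377, 0.303 and 0.505 CPM in control and 4.87, 0.818 and 1.98 CPM in cKO (log2 fold change 2.67, SE 0.70, adjusted p 0.0901 in edgeR and 0.0394 with the replicate block). *Alpl*, which is also a marker of the stratum intermedium, the layer next to the IEE, was at 772, 898 and 876 CPM in control and 426, 443 and 466 CPM in cKO. It differed by −0.93 on the log2 scale (SE 0.13, adjusted p 0.0498 in edgeR), which was under the size of 1 that the criterion asks for, and 0.545% of all genes had an adjusted p of 0.05 or less. Over the 20 genes 14 were higher on average in cKO and the median log2 fold change was 0.30.

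**Figure D5:**
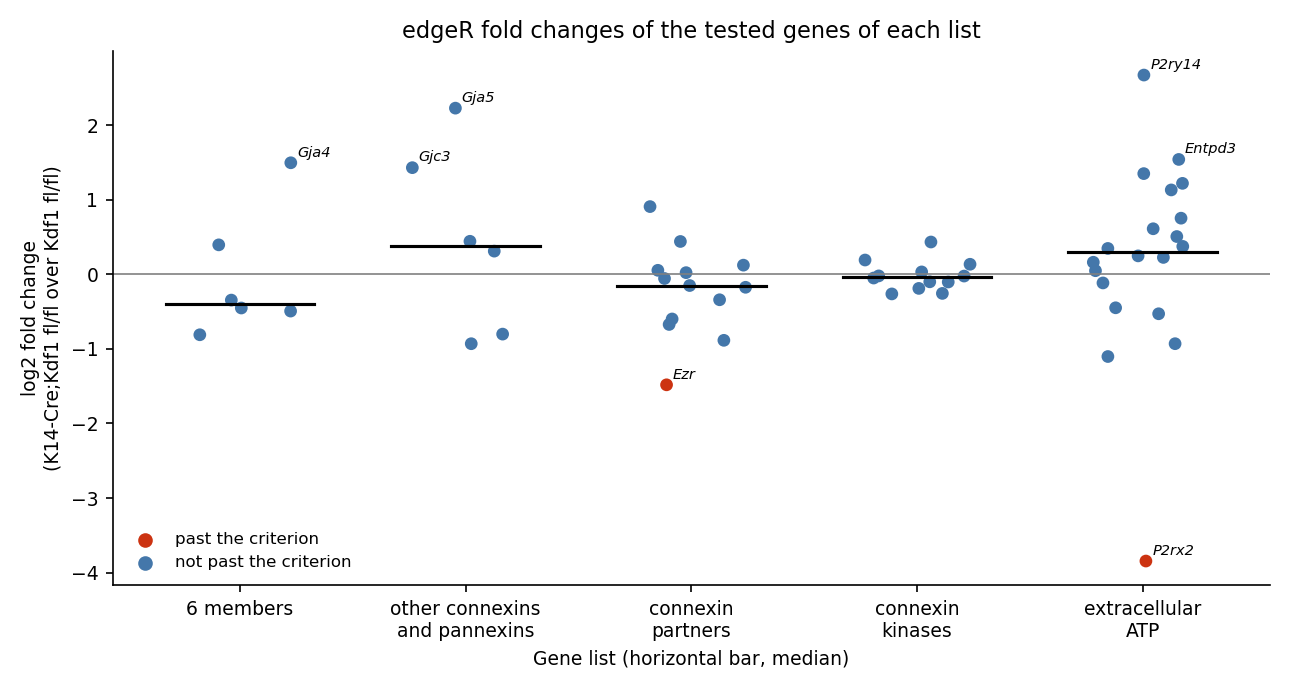
Log2 fold change in edgeR of every tested gene of the 5 lists, with a bar at each list's median and genes past the criterion in red. *Ezr* and *P2rx2* are the only red points, *Gja4* is the highest of the 6 genes of the report, and the kinases lie closest to 0.

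For each of the 6 genes, the 3 genes with the highest Pearson correlation of log2 CPM over the 6 libraries were taken from genes with a mean of at least 5 CPM. *Gja4* ran with *Kcne4* (0.998), *Gimap6* (0.998) and *Adcy5* (0.997), and 5.59% of 11597 genes reached an r of 0.9 with it. Of these, *Kcne4* was at a mean of 1.03 CPM in control and 34.8 CPM in cKO, and *Adcy5* at 3.41 and 16.1 CPM. These 2 genes met the mean of 5 CPM only through the cKO libraries, and their r with *Gja4* includes the difference between the groups. *Gja1* ran with *Hikeshi*, *Camta1* and *Ciao2b* (0.997 each), and 4.79% of genes reached 0.9. *Gjb2* ran with *Gpr85* (0.997), *Exosc5* (0.992) and *Lmf1* (0.989), and *Gjb6* with *Trir* (0.997), *Wdr55* (0.993) and *Nfkbib* (0.993). *Gjc1* ran with *Litaf* (0.992), *Osbpl1a* (0.990) and *Phc1* (0.988), and *Panx1* with *Casz1* (0.995), *Prkra* (0.994) and *Ppp1r13l* (0.991). With 6 points that share the same libraries, such values are common, and they are given as a description.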

How the data were processed

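RNA-seq libraries from the MM1 IEE at E18.5 were analysed, 3 control and 3 cKO. The authors deposited a table with estimated counts, FPKM and TPM for each gene and library. Per the labels, the libraries were made with the TruSeq kit, and the submitters' processing notes name BWA 0.7.12, Picard 2.6.0 and StringTie without their roles. The genome build and the use of strand in counting are not given in the sources used here. The deposited estimated counts are not normalised, and 10.9% to 11.5% of a library's values were not whole numbers. They were rounded. The TPM values deposited by the authors were used for levels between genes. The deposited FPKM and the authors' group means were not used.

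Libraries were scaled by TMM (factors 0.9498 to 1.032) and filtered by filterByExpr, and CPM were computed from the scaled sizes. Groups were compared in R 4.3.3 with edgeR 4.0.16 (robust quasi-likelihood fit, two-sided F-test, Benjamini-Hochberg over all 14131 genes). A gene was called when its log2 fold change was 1 or more in size and its adjusted p was 0.05 or less. With libraries of 14713918 to 16675133 counts, a count of 0 allows 3 counts, or 0.182 to 0.198 CPM, which covers counting error only. The biological coefficient of variation was 25.4%. Same-numbered libraries deviated together from their group means (r = 0.135, 0.324 and 0.499 across genes). Differently numbered pairs gave r from −0.41 to 0.144, the highest being control replicate 2 with cKO replicate 1. The labels state no pairing, so a pairing by number was read from these same data and is uncertain. A fit with the number as a block was run beside the main one. DESeq2 1.42.0, limma 3.58.1 (voom, and log2(TPM + 1) or log2(TPM + 0.1)), other scalings and filters, and the omission of each library were the alternatives. Promoters came from RefSeq.

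The genes and lists were chosen with earlier results of these data known. Named were the 6 genes, *Kdf1*, every other connexin or pannexin gene tested, list members past the criterion or else the 3 with the lowest p, the 3 nearest genes by correlation (log2 CPM, prior count 2), and the first 2 markers of each list. Other genes were named after their values were seen. A few genes that this rule names are not reported here.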

Additional observations from a re-analysis of the deposited data

How the results depend on the processing

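Of 96 alternative fold changes of the 6 genes, 93 kept their direction and their side of the threshold and none reversed; the 3 others were those of *Gja4*, which passed with DESeq2, the replicate block and without cKO replicate 3. The number of these genes called was thus 1 instead of 0 with DESeq2 and with the replicate block, and 0 to 1 with 1 library left out. The other connexins and pannexins had 1 call with DESeq2 (*Gja5*), and the connexin partners 0 to 2 with 1 library left out. The extracellular ATP list had 0 calls with DESeq2's size factors in edgeR, library size alone, limma-voom or at least 10 counts in every library. Under the last of these *P2rx2* was not tested, as it had 9, 7 and 16 counts in cKO, so it could not be called. It had 2 with DESeq2, the replicate block or an adjusted p of at most 0.05 alone, and 0 to 1 with 1 library left out. Beside *P2ry14*, *Gja4* and the marker genes given with their blocked values, the pairing changed no call of a gene whose test is given.

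Over all genes, edgeR called 61 (20 higher, 41 lower), against 980 (714 higher, 266 lower) with DESeq2 and 860 (588 higher, 272 lower) with the block. It called 7 (1 higher, 6 lower) with DESeq2's size factors, 9 (2 higher, 7 lower) with library size alone, 6 (0 higher, 6 lower) with limma-voom, 6 with at least 10 counts and 103 without a filter. On log2(TPM + 1), limma called 31. Without cKO replicate 3 the count was 465 and without control replicate 2 it was 16, and each of the other 4 omissions gave 1. *Kdf1* was not tested under the filter of at least 10 counts. *Gjb2* and *Gjb6* had 22 to 113 counts a library, and 9 connexin genes had too few counts to be tested.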

Other observations

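The 9 connexin genes that did not pass the filter on low counts were at or near the limit of detection. *Gja6* was the most abundant of these in cKO, with 6, 3 and 4 counts in control and 9, 4 and 11 counts in cKO, and *Gjd3* was at 0.485 to 0.695 CPM in control and 0.189 to 0.570 CPM in cKO. *Gjb5*, a gene of stratified epithelium, was at no more than 0.190 CPM in any library. *Gja10* was listed at 0 in all control libraries, and *Gje1* in all cKO libraries.

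Markers of the remaining tissues were summed in the same libraries. Those of the stratum intermedium came to 2504 to 3456 CPM in control and 1493 to 1895 CPM in cKO, with *Cyp2s1* at 4.48 to 9.17 and 6.29 to 7.25 CPM and *Hey2* at 7.27 to 16.9 and 11.8 to 16.9 CPM, and *Rhcg* was at 0 in all cKO libraries. Keratinised epithelium came to 41.8 to 157 and 15.9 to 21.8 CPM, with *Krt1* at 3.27 to 4.52 and 2.02 to 2.70 CPM and *Krt10* at 8.16 to 9.29 and 5.32 to 8.70 CPM. Immune cells came to 31.5 to 66.6 CPM in control and 53.5 to 204 CPM in cKO, with *Ptprc* at 1.58 to 5.03 and 1.78 to 8.54 CPM and *Cd68* at 9.60 to 10.1 and 11.9 to 38.3 CPM. All 9 immune markers were higher on average in cKO, with 0 past the criterion in edgeR. At an unadjusted p of at most 0.05 in edgeR 6 passed, against 24.5% of all genes. DESeq2 called 5, against 6.94% of all genes. Erythroid genes came to 831 to 1302 and 799 to 1281 CPM, with the near-identical copies *Hba-a1* at 299 to 496 and 302 to 468 CPM and *Hba-a2* at 181 to 321 and 186 to 246 CPM. Bone and cartilage came to 291 to 462 and 333 to 484 CPM, with *Bglap* at 9.86 to 94.2 and 9.18 to 49.0 CPM and *Ibsp* at 95.3 to 119 and 111 to 323 CPM. Skeletal muscle came to 3.76 to 5.90 and 3.89 to 6.29 CPM, with *Myh3* and *Myh8* below 1 CPM in every library, and neural and Schwann cells to 247 to 431 and 152 to 241 CPM.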
